A study of Rattus norvegicus with 20 samples.

Results

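The effect of losing Vegfb on the heart in the absence of diabetes was examined in 10 of the 20 libraries of the study, namely the 5 VegfbKO control and the 5 wildtype (WT) control rats. They were chosen by genotype and treatment as labelled, with 1 library of ventricle RNA per rat. VegfbKO rats are global knockouts on the Sprague Dawley background, made with zinc-finger nucleases that placed lacZ in the first exon of Vegfb, and the WT controls were littermates. All were males labelled week 9, although the design note of the deposit names a younger age at the end of housing, and the control rats had received no streptozotocin. The other 10 rats, 5 of each genotype, had received 55 mg/kg streptozotocin, which destroys beta cells of the pancreas, and were sampled on day 4 of diabetes. They serve here for comparison with the control hearts.

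VEGFB is a secreted growth factor that acts on endothelial cells, and cardiomyocytes are among its main sources. Its relative VEGFA is a strong inducer of vessel growth and VEGFB a weak one, and VEGFB has been linked to the passage of fatty acids from blood into muscle. A knockout in every tissue does not tell an effect within the heart from an effect of another organ. In whole ventricle, moreover, fewer cells of a type and less RNA per cell cannot be told apart.

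The values were estimated counts per Ensembl gene ID, rounded to whole numbers. The total per library ranged from 7314287 to 26664479 in WT controls and from 18334499 to 24387305 in VegfbKO controls. WT control replicate 2 was the shallow library. Of 24059 IDs, 13803 had at least 10 counts in at least 5 of the 10 libraries and were tested, and the other 10256 held at most 0.0676% of the counts of any control library. Levels are given as CPM, the counts scaled to library size, after TMM scaling. The files give IDs without names. Names are used only for Lpl, Cpt1b and Vegfa, whose IDs came with the definition of the comparison and were not checked against an annotation. Vegfb itself was not identified among the IDs, and neither the genotype labels nor the tissue could be checked through the levels of known genes. The paper reports genotyping of ear samples by PCR, and Vegfb transcript below detection by quantitative RT-PCR in VegfbKO ventricles.

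Few IDs differed between the genotypes. By edgeR's quasi-likelihood test 3 of 13803 IDs were called, 0.0217% of those tested, and all 3 were lower in VegfbKO hearts. An ID counted as called when its p-value after Benjamini-Hochberg adjustment was under 0.05 and its log2 fold change exceeded 0.27 in size. These thresholds were taken from the methods of the study. No ID was called higher. An unadjusted p under 0.05 was reached by 669 IDs, 265 higher and 404 lower in VegfbKO hearts, where uniform p-values would give 690. Limma voom also called 3, and some other fits called more. With DESeq2 18 IDs passed, 5 of them higher, and with the likelihood ratio test of edgeR 13 did, 3 of them higher. The quasi-likelihood test without WT control replicate 3 called 6 IDs, all lower, without VegfbKO control replicate 1 it called 4, 1 of them higher, and without a filter on low counts 5, 1 of them higher.

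ENSRNOG00000021156 separated the genotypes most widely. Its level was 146, 137, 133, 137 and 143 CPM in WT control replicates 1 to 5, and 0.290, 1.28, 0.283, 0.120 and 0.580 CPM in VegfbKO control replicates 1 to 5. The WT hearts lay close together, and all VegfbKO hearts were near 0 without reaching it, with 3 to 25 counts where WT hearts had 1020 to 3845. The means were 139 ± 5.22 and 0.510 ± 0.460 CPM (SD, n = 5 each). The log2 fold change was -8.12 (standard error, SE, 0.36, adjusted p-value 3.72e-08 by edgeR), with a 95% interval from -8.93 to -7.34. In VegfbKO hearts the ID thus stood at 0.366% of its WT mean. Since the IDs carry no names, whether it is the targeted gene itself or a gene changed by its loss was not tested.

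The fall of ENSRNOG00000043060 was of another order. WT control replicates 1 to 5 had 18.7, 16.8, 19.4, 17.7 and 20.6 CPM, and VegfbKO control replicates 1 to 5 had 6.78, 8.48, 8.29, 8.62 and 8.75 CPM. Every VegfbKO heart was below every WT heart, and the ID was still counted in all of them, with at least 117 counts. From 18.6 ± 1.46 to 8.19 ± 0.801 CPM (SD, n = 5 each), the mean fell to 43.9% of WT. The log2 fold change was -1.19 (SE 0.09, adjusted p-value 8.83e-06 by edgeR), with a 95% interval from -1.39 to -0.99.

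The third called ID behaved much like the second. It had 23.3, 18.2, 21.6, 24.5 and 20.3 CPM in WT control replicates 1 to 5, and 9.10, 10.3, 12.3, 10.5 and 11.3 CPM in VegfbKO control replicates 1 to 5. Here too the groups did not overlap, and the VegfbKO mean was 49.6% of the WT mean. The log2 fold change was -1.02 (SE 0.10, adjusted p-value 1.37e-04 by edgeR), with a 95% interval from -1.24 to -0.81.

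**Figure D1:**
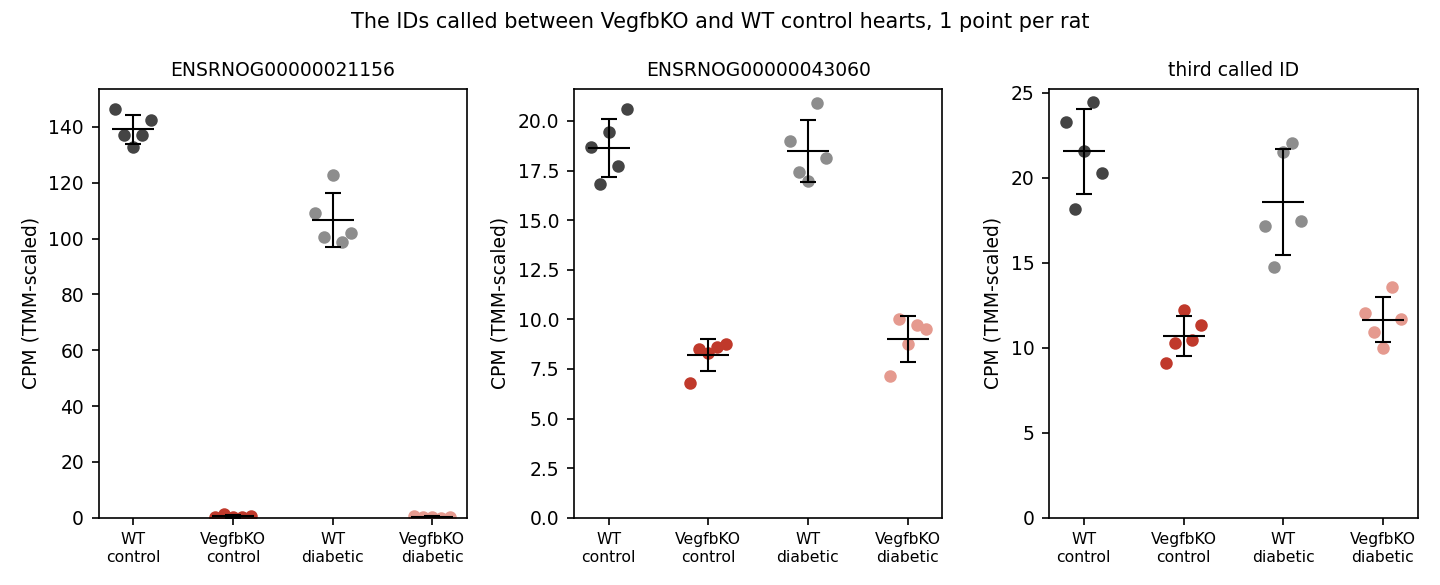
CPM of the 3 called IDs (vertical axes, linear from 0) in each of the 20 rats, by group, with bars for the mean and SD of 5 rats, control and diabetic libraries being scaled separately. In control hearts the first ID had at least 133 CPM in every WT rat and at most 1.28 CPM in every VegfbKO rat, and the other called IDs in VegfbKO rats were at 43.9% and 49.6% of the WT mean.

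Beyond these 3, the ranking fell off quickly. The next ID by p was lower in VegfbKO hearts, with 6.49 ± 1.07 CPM in WT and 3.32 ± 0.578 CPM in VegfbKO (SD, n = 5 each), for a log2 fold change of -0.95 and an adjusted p of 0.0673 from edgeR, and so missed the threshold. Among IDs with a higher mean in VegfbKO hearts, the smallest p belonged to one with 61.1 ± 7.40 CPM in WT and 82.6 ± 5.10 CPM in VegfbKO (SD, n = 5 each), for a log2 fold change of 0.44 with an adjusted p of 0.195 from edgeR. The groups did not overlap for 140 IDs, 1.01% of those tested, 52 higher and 88 lower in VegfbKO hearts. Over all IDs, 6895 were higher and 6908 lower in VegfbKO hearts. TMM scaling centres the differences, so this near-even split was largely set by the scaling and is not read as a result. The median absolute log2 fold change was 0.08.

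**Figure D2:**
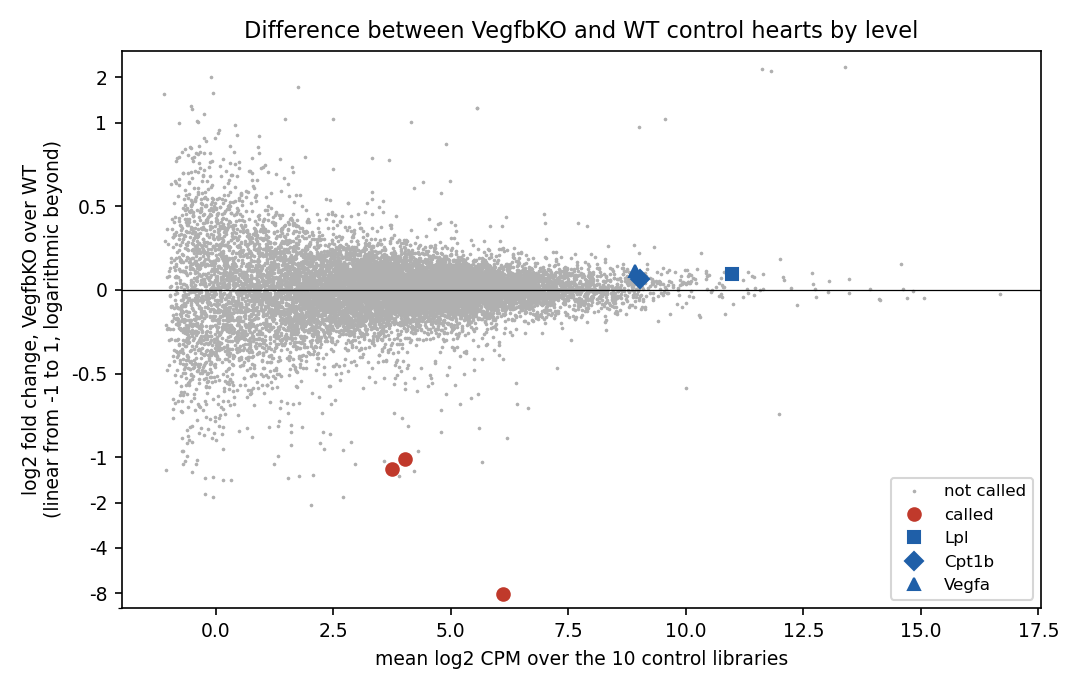
Log2 fold change of VegfbKO over WT control hearts (vertical axis, linear from -1 to 1 and logarithmic beyond) against mean log2 CPM (horizontal axis), 1 point for each of 13803 IDs. The 3 called IDs are in red at -8.12, -1.19 and -1.02, the spread of the other IDs narrows with level, and Lpl, Cpt1b and Vegfa lie between 0.07 and 0.11.

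An ID that was not called may still have changed. How large a change the 10 hearts leave possible was therefore read from the 95% interval of each log2 fold change. The limit of an ID is the bound of its interval farther from 0, so that any larger change in either direction lies outside the interval. Over all IDs tested the median limit was 0.34, a 1.27-fold change. The interval lay wholly within 0.27 of 0, the cut-off for a call, for 4682 IDs, or 33.9%. A pair of one-sided tests per ID, adjusted over all 13803, showed a change under 1.5-fold for 11001 IDs (79.7%) and under 2-fold for 13051 IDs (94.6%), while for 752 IDs even a 2-fold change was not shown to be absent.

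The limits depended on the level. For the 945 IDs with a mean log2 CPM under 0, that is under 1 CPM, the median limit was 1.06, or 2.09-fold, and only 17 were shown to change by under 1.5-fold. Between 0 and 2 the median limit of 2481 IDs was 0.69, or 1.61-fold, and a change under 2-fold was shown for 89.6%. Between 2 and 4, or 4 to 16 CPM, it was 0.37 for 4003 IDs, or 1.29-fold, and 91.8% were shown to change by under 1.5-fold. For the typical ID, then, a 2-fold change lay within the interval only under 1 CPM, and from 4 CPM upwards a 1.5-fold change lay outside it.

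Precision gained little above 16 CPM. The median limit was 0.25 for the 4488 IDs between 4 and 6, or 1.19-fold, and 0.22 for the 1886 IDs at 6 and over, or 1.17-fold. A change under 1.5-fold was shown for 97.9% and 98.0% of these IDs. The share of the variance of the difference that counting alone gives had a median of 49.7% under 0, 31.2% between 2 and 4 and 5.01% at 6 and over. At the high levels counting thus gave little of the uncertainty, and the rest holds differences between rats and between libraries, which cannot be told apart with 1 library per rat. At 6 and over the median SD on the log2 scale was 0.12 in WT and also 0.12 in VegfbKO hearts, against 0.54 and 0.47 for IDs under 0.

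The difference needed for a call was larger than the limit. Beside the 3 called, a further ID would have needed an unadjusted p under 1.45e-05 for its adjusted p-value to pass. At that p, the log2 fold change needed had a median of 2.26 under 0, 1.47 between 0 and 2, 0.78 between 2 and 4, 0.53 between 4 and 6 and 0.48 at 6 and over. An observed 1.5-fold change, 0.58 on this scale, would thus have been enough for 66.9% of IDs between 4 and 6 and 77.4% at 6 and over, but for 9.29% between 2 and 4 and for 0 below 2. Without the shallow WT control replicate 2, 4 IDs were called and the median limit was 0.35, so the limits did not rest on that library.

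**Figure D3:**
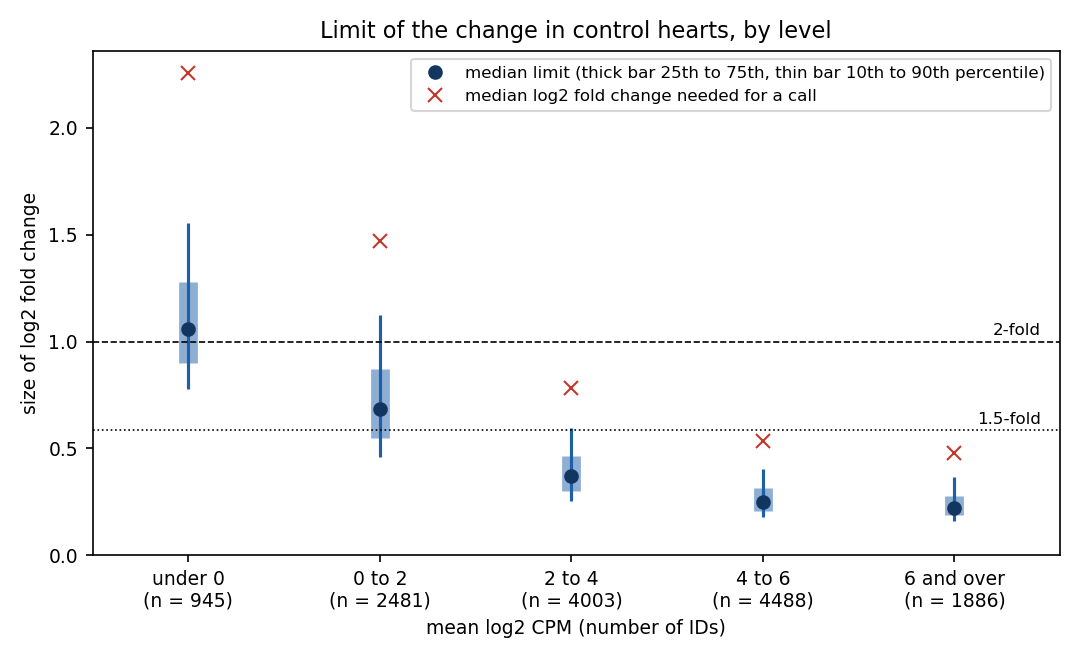
Limit of the log2 fold change between VegfbKO and WT control hearts (vertical axis) for IDs in 5 ranges of mean log2 CPM (horizontal axis), as the median (dots), the 25th to 75th percentile (thick bars) and the 10th to 90th percentile (thin bars). The median limit drops from 1.06 under 0 to 0.22 at 6 and over, and crosses show the median difference needed for a call, from 2.26 to 0.48.

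A high level did not always bring a narrow interval. At 6 and over, 18 uncalled IDs had a limit of 2-fold or more, 9 with a higher and 9 with a lower mean in VegfbKO hearts, and their limits ranged from 1.04 to 4.53. Counting gave at most 0.826% of the variance of these IDs, and the groups overlapped for all 18. Their median SD on the log2 scale was 0.70 in WT and 0.80 in VegfbKO hearts, several times that of other IDs of this level.

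The largest limit among them was that of ENSRNOG00000065867, which was chosen after its values were seen. It had 4335, 2622, 1651, 5871 and 2915 CPM in WT control replicates 1 to 5, and 1208, 24286, 5268, 4020 and 54166 CPM in VegfbKO control replicates 1 to 5. VegfbKO control replicates 2 and 5 were far above all other control hearts, while replicate 1 was the lowest of the 10. The log2 fold change was 2.35 with an interval from 0.18 to 4.53 and an adjusted p of 0.993 from edgeR, and without VegfbKO control replicate 5 it was 1.32. For this ID neither a rise nor its absence was shown.

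The IDs given for Lpl, Cpt1b and Vegfa stand for the supply and the use of fatty acids and for the growth of vessels. Lpl encodes lipoprotein lipase, which cardiomyocytes make and which, at the vessel wall, frees fatty acids from circulating triglyceride. None of the 3 was called in control hearts, and all 3 were among the 79.7% of IDs shown to change by under 1.5-fold, a share that was 98.0% among IDs of their level.

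Lpl (ENSRNOG00000012181) had 1887, 2076, 1891, 2148 and 1823 CPM in WT control replicates 1 to 5, and 2481, 2110, 1771, 2080 and 2043 CPM in VegfbKO control replicates 1 to 5. The groups overlapped, and both the lowest and the highest value belonged to VegfbKO hearts. Means were 1965 ± 139 and 2097 ± 254 CPM (SD, n = 5 each), for a log2 fold change of 0.09 (SE 0.09, adjusted p-value 0.993 by edgeR). The 95% interval ran from -0.09 to 0.28, that is from -6.33% to 21.6%, which leaves little room for a fall of the Lpl transcript. The adjusted p for a change under 1.5-fold was 7.34e-05. These are transcript levels, and lipase protein or activity is not measured by them. The paper reports lower peak lipase activity released by heparin in VegfbKO than in WT control hearts, with lipase protein unchanged.

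Cpt1b encodes the muscle form of carnitine palmitoyltransferase, which commits long-chain fatty acids to entry into mitochondria. Cpt1b (ENSRNOG00000010438) had 511, 492, 464, 553 and 527 CPM in WT control replicates 1 to 5, and 499, 469, 528, 600 and 569 CPM in VegfbKO control replicates 1 to 5. VegfbKO control replicates 4 and 5 were above every WT heart, and the lowest heart was a WT one. From 509 ± 33.7 to 533 ± 52.6 CPM (SD, n = 5 each), the log2 fold change was 0.07 (SE 0.08, adjusted p-value 0.993 by edgeR), with an interval from -0.10 to 0.23, or from -6.76% to 17.5%. Of the 3 it had the tightest limit, 1.18-fold, and the adjusted p for a change under 1.5-fold was 1.81e-05.

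Vegfa encodes the family member that drives vessel growth. Vegfa (ENSRNOG00000019598) had 464, 495, 462, 424 and 480 CPM in WT control replicates 1 to 5, and 485, 454, 478, 526 and 568 CPM in VegfbKO control replicates 1 to 5. VegfbKO control replicates 4 and 5 were above every WT heart and the other 3 were among them. Means were 465 ± 26.8 and 502 ± 44.8 CPM (SD, n = 5 each), for a log2 fold change of 0.11 (SE 0.07, adjusted p-value 0.993 by edgeR). The interval from -0.05 to 0.27, or from -3.22% to 20.4%, leaves room for a modest rise and for little fall. A change under 1.5-fold was shown at an adjusted p of 2.33e-05.

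To give these limits a scale, the same IDs were compared between WT diabetic and WT control hearts, in a fit of all 20 libraries that shares the WT control libraries. With diabetes the log2 fold change was -0.46 for Lpl (SE 0.09, adjusted p-value 7.78e-04 by edgeR), 0.33 for Cpt1b (SE 0.08, adjusted p-value 0.00405) and -0.53 for Vegfa (SE 0.08, adjusted p-value 7.29e-05). For each of the 3, a change of that direction and size lay outside the interval of the genotype difference in control hearts.

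**Figure D4:**
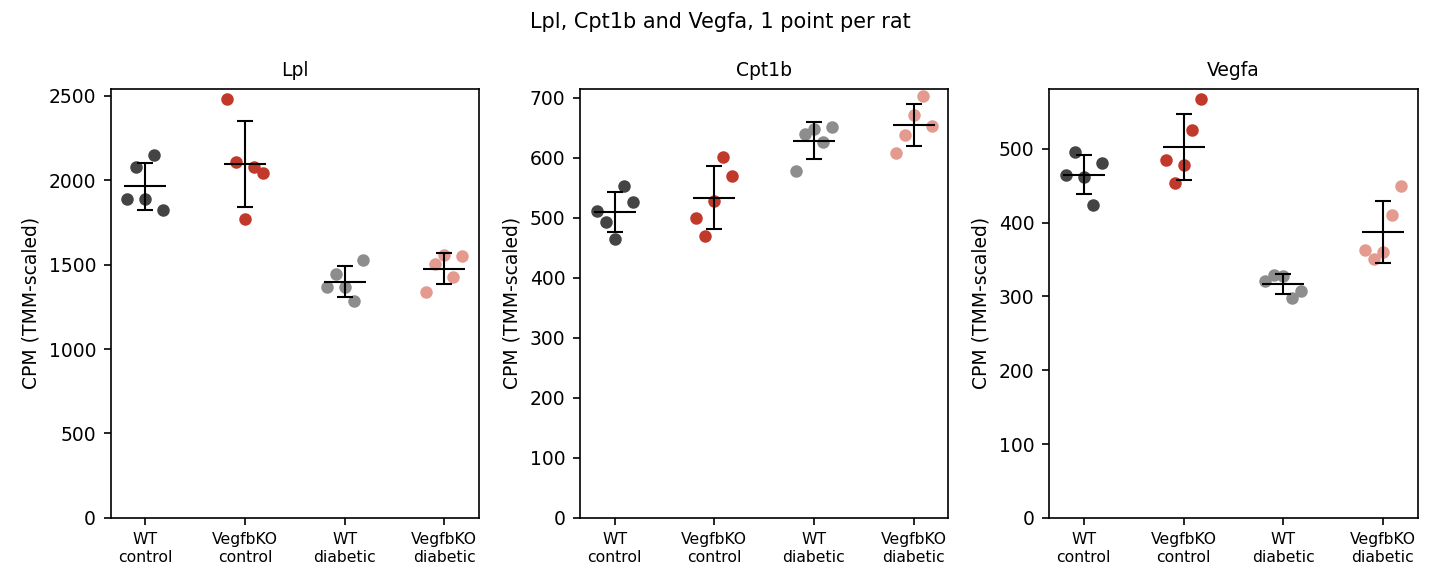
CPM of Lpl, Cpt1b and Vegfa (vertical axes, linear from 0) in each of the 20 rats, by group, with bars for the mean and SD of 5 rats, control and diabetic libraries being scaled separately. The control groups overlap for all 3, at 1965 and 2097 CPM for Lpl, 509 and 533 CPM for Cpt1b and 465 and 502 CPM for Vegfa in WT and VegfbKO.

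Diabetic rats allowed the called IDs to be looked up in animals that had no part in their choice. Of the 13803 IDs, 3 were called between VegfbKO and WT diabetic hearts (0.0217%), all lower in VegfbKO, and 2 of them were ENSRNOG00000021156 and ENSRNOG00000043060. ENSRNOG00000021156 had 107 ± 9.80 CPM in WT and 0.325 ± 0.220 CPM in VegfbKO diabetic hearts (SD, n = 5 each), for a log2 fold change of -8.46. ENSRNOG00000043060 had 18.5 ± 1.55 and 9.03 ± 1.16 CPM (SD, n = 5 each), for a log2 fold change of -1.01 (adjusted p-value 6.14e-04 by edgeR). For the third ID the log2 fold change in diabetic hearts was -0.68, with an interval from -0.95 to -0.41 and an adjusted p of 0.182 from edgeR. In both states, then, these IDs had lower means in VegfbKO hearts, and for the third the call was made in control hearts alone.

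Whether a genotype difference itself differed between control and diabetic hearts was tested as an interaction over all 20 libraries. By edgeR 0 of 13803 IDs (0%) had an adjusted p under 0.05, with 577 at an unadjusted p under 0.05, and DESeq2 also gave 0, with 596. Leaving out 1 library kept the number called at 0, while the number at an unadjusted p under 0.05 ranged from 409 to 1019. It was 1019 without WT diabetic replicate 3, 933 without WT control replicate 3 and 913 without WT diabetic replicate 2. The fall of the third called ID was smaller in diabetic hearts by 0.34 (standard error 0.16). For its interaction the unadjusted p was 0.0486 and the adjusted p 0.9999 by edgeR. That ID was chosen for its control values, which this test also uses. For Lpl the genotype difference was 0.08 in diabetic hearts, and for Cpt1b 0.06, nearly the values of control hearts. Vegfa had 317 ± 13.3 CPM in WT and 387 ± 42.0 CPM in VegfbKO diabetic hearts (SD, n = 5 each), for a log2 fold change of 0.29 with an interval from 0.10 to 0.48 and an adjusted p of 0.505 from edgeR. The difference of Vegfa was thus larger in diabetic hearts by 0.19 (standard error 0.11), with an adjusted p of 1.00 for the interaction.

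The direction of differences that missed the threshold was also looked up in diabetic hearts. Of the 666 uncalled IDs with an unadjusted p under 0.05 in control hearts, 448 (67.3%) differed in the same direction in diabetic hearts, against 55.7% of all IDs tested. Among the 44 uncalled IDs with a log2 fold change above 1 in size, the direction was the same for 40. The sizes are not compared, since the IDs were chosen for their values in control hearts. IDs are not independent of each other, and which rats shared a litter was not given.

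Limits were wider in the diabetic hearts. Their median was 0.41 against 0.34 in control hearts, and the limit was wider in diabetic hearts for 9828 IDs, or 71.2%. At 6 and over it was 0.31 against 0.22. The total per library ranged from 12965611 to 23399247 in WT diabetic and from 7220469 to 21935785 in VegfbKO diabetic hearts. WT diabetic replicate 2 and VegfbKO diabetic replicate 1 had TMM factors of 0.732 and 0.700, the lowest of the diabetic libraries. In these libraries ENSRNOG00000065867 held 23.3% and 25.5% of the counts. The most counted ID of any other diabetic library held at most 13.3%. Why the limits were wider was not tested. The number called in diabetic hearts depended on the fit, with 50 by DESeq2, of which 7 were higher, and 103 without WT diabetic replicate 3, of which 28 were higher.

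**Figure D5:**
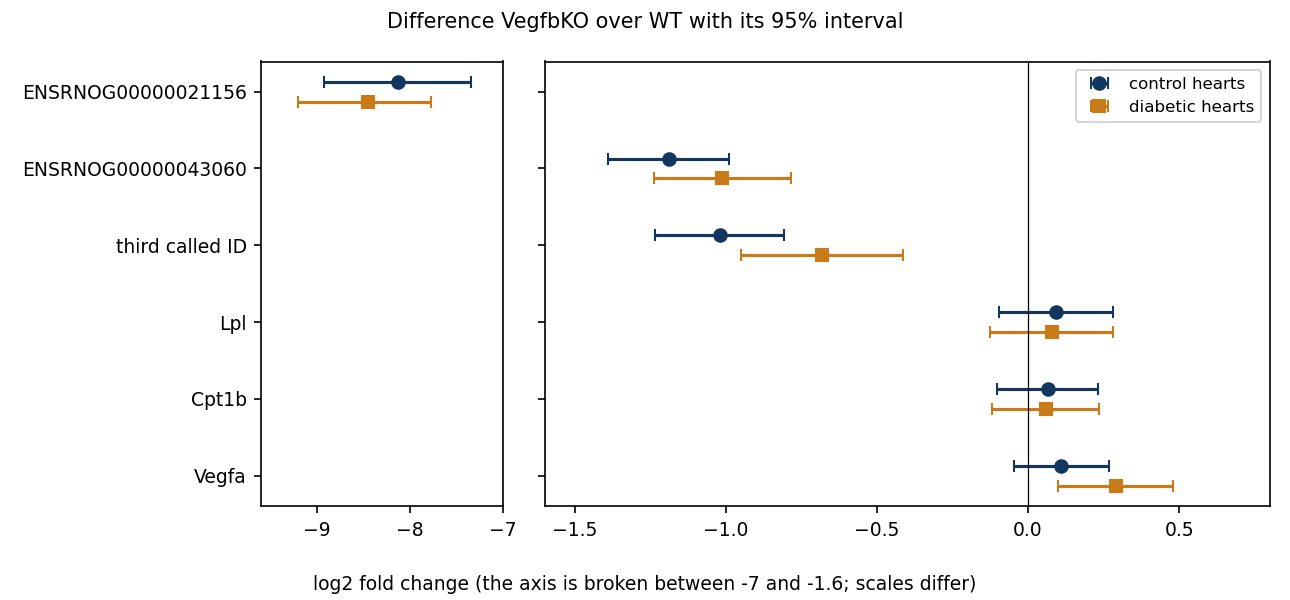
Log2 fold change of VegfbKO over WT (horizontal axis, broken and with different scales on its parts) in control (circles) and diabetic (squares) hearts, with 95% intervals, for the 3 called IDs and Lpl, Cpt1b and Vegfa. The called IDs lie below 0 in both states, Lpl and Cpt1b lie near 0 in both, and Vegfa is at 0.11 in control and 0.29 in diabetic hearts.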

How the data were processed

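RNA of 20 rat ventricles, 5 for each combination of genotype and diabetes, was sequenced by the authors as directional paired-end libraries. The authors deposited estimated counts per Ensembl gene ID. Their processing notes name kallisto, edgeR and DESeq2 without versions and the build mRatBN7.2. Such estimates divide reads between similar genes, so IDs with near-identical copies are uncertain, and 6 tested IDs had the same counts as another in every control library. Groups came from the labels. The deposited estimated counts were rounded, and IDs with at least 10 counts in at least 5 of the 10 control libraries were kept. They were scaled by TMM and fitted in R 4.3.3 with edgeR 4.0.16, using a robust quasi-likelihood model of the 10 libraries. Intervals of 95% used the coefficient's variance with the moderated dispersion and the t quantile at the total degrees of freedom, and cover counting and the spread between libraries, 1 per rat. P-values were adjusted by Benjamini-Hochberg over all IDs tested. The code was tested on simulated counts. Alternatives were DESeq2 1.42.0, limma 3.58.1, other scalings, filters and fits, thinned counts, the replicate number as a block and each library left out. Figures were drawn with matplotlib 3.10.9.

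The IDs named, the gene lists and the tests were chosen with earlier results of these data known. The rule names Lpl, Cpt1b, Vegfa and, where IDs have no names, at most 2 called IDs in each direction, so the third called ID is given by its values. ENSRNOG00000065867 was added after its values were seen. Of the genes in the RefSeq table at hand 0 carry an Ensembl ID, so 0 IDs were matched to a symbol, and the planned gene lists and cell type markers were not analysed here. Within each control group no library was treated as a duplicate, since the chi-square per ID between any pair of its libraries was at least 5.93.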

Additional observations from a re-analysis of the deposited data

Results flagged for a closer look

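A rat was taken as extreme in its group of 5 when its distance to the next rat exceeded 0.71 of the group's range. Of 36 groups of values, 3 held an extreme rat. Chance would give about 1.8 if all groups were independent and normally distributed. That number does not hold for ENSRNOG00000065867, which was chosen for its wide limit in control hearts. ENSRNOG00000043060 was low in VegfbKO control replicate 1, at 6.78 CPM with the next rat at 8.29 CPM, and without that rat its log2 fold change was -1.13. ENSRNOG00000065867 was high in WT diabetic replicate 2, at 319065 CPM with the next rat at 16350 CPM, and in VegfbKO diabetic replicate 1, at 363853 CPM with the next rat at 38458 CPM.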

How the results depend on the processing

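Against 3 IDs called between control hearts, 5 were called without a filter, 13 by edgeR's likelihood ratio test, 18 by DESeq2 and 7 by limma voom with sample quality weights, which was chosen after seeing the data, as was the bias-adjusted quasi-likelihood fit. Leaving out 1 library gave 3 to 6. The 3 called IDs kept their calls under every setting that tested them, and a filter of 10 counts in all 10 libraries removed ENSRNOG00000021156. The median limit of 0.34 was 0.50 without a filter and 0.31 with 10 counts in all libraries, since these change which IDs enter, 0.49 with counts thinned to the smallest total, 0.31 with quality weights, and 0.34 to 0.37 with 1 library left out. The IDs shown to change by under 1.5-fold numbered 8275 to 11246 and those under 2-fold 11126 to 13128, both lowest with thinned counts, so depth limits what is excluded. The log2 fold change stayed between 0.03 and 0.15 for Lpl, 0.02 and 0.11 for Cpt1b and 0.06 and 0.14 for Vegfa, and none was called.

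Between diabetic hearts, 3 IDs were called, against 50 by DESeq2, 5 with the replicate block and 2 to 103 with 1 library left out. The cause was not tested. The interaction called 0 IDs under each setting. Deviations of same-numbered control rats correlated across IDs at 0.03 to 0.15 and those of other pairs at -0.20 to 0.16. The numbers were not taken to pair the rats, since only 3 of 5 correlations were over 0.1 and not every rat correlated best with its own number, but all 5 were positive and pairing remains possible. With the replicate block 3 IDs were called between control hearts, and the median limit was 0.33.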
